A study of Rattus norvegicus with 12 samples.

Results

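The 9 complement genes C1qa, C1qb, C1qc, Fcna, C3, C4a, C5, C8a and Cfd were followed across the liver cell types of healthy male rats. They were chosen by their cell source, their difference between strains in cells and nuclei and their position on tissue sections, and were taken by name from the 32883 genes of the deposited matrices. Those values are therefore given as descriptions, without a test. Tests are read only for the other genes of the pathway, of which 43 are in the gene list, and for zonation in hepatocyte nuclei, which played no part in the choice.

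Total liver homogenate (TLH) cells came from 2 Dark Agouti (DA) and 2 Lewis (LEW) rats, labelled 8 to 10 weeks old, although the study's methods give an older age, and profiled with 10x Genomics 3′ v2 chemistry after collagenase digestion. Nuclei of another 2 DA and 2 LEW rats, 1 immune-enriched cell library per strain and 2 Wistar sections on Visium slides used later chemistries. By the study's account the immune-enriched samples had additional washes, depletion of red blood cells and removal of parenchymal cells by centrifugation. No animal was treated or genetically altered. TLH cells and nuclei differ in rat, chemistry and material at once, so these cannot be told apart between them, whereas immune-enriched cells share the v3 chemistry of the nuclei.

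Complement is a cascade of plasma proteins that tags microbes and dying cells. C1q, built from A, B and C chains, binds antibody-coated surfaces and starts the classical pathway, whereas ficolins and mannose-binding lectins recognise sugars and start the lectin pathway. Both lead to cleavage of C3, the central component, while factor D (Cfd) cuts factor B in the alternative pathway. C5, C6, C7, C8 and C9 then form the membrane attack complex. Hepatocytes are the classic source of most plasma complement, and tissue macrophages, which in liver are Kupffer cells, of C1q.

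After quality filters the TLH libraries kept 3844 to 7112 cells, the nuclei libraries 2205 to 5262 nuclei and the immune-enriched libraries 1163 and 2677 cells. Unique molecular identifiers (UMIs) were summed per rat and class, and levels are given as CPM, the counts of a gene scaled to a common total of that sum. Kupffer cells were gated on 7 markers (Clec4f, Cd5l, Marco, Cd163, Folr2, Msr1 and Adgre1), none of them a complement gene. The gate held 268, 414, 259 and 267 TLH cells of DA-1, DA-2, LEW-1 and LEW-2, against 48, 68, 59 and 64 nuclei. Cd68, a macrophage gene outside the gate, was at 430 to 1006 CPM in the Kupffer gates of TLH cells and 10.1 to 17.7 CPM in their hepatocyte gates, and at 71.8 to 239 CPM against 1.29 to 4.20 CPM in nuclei. Hepatocyte RNA was present in every Kupffer gate, with hepatocyte markers summing to 55586 to 81029 CPM in TLH cells, 49434 to 52148 CPM in nuclei, and 674 and 14902 CPM in the DA and LEW immune-enriched cells. Every TLH and nuclei value below carries that background. Nuclei libraries shared 1 to 6 barcodes per pair.

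C1q transcripts were concentrated in Kupffer-gated cells in all 4 TLH rats. C1qa, encoding the A chain, reached 3924 and 4449 CPM in DA-1 and DA-2 and 6665 and 6774 CPM in LEW-1 and LEW-2. The hepatocyte gates of these rats held 89.1, 77.7, 68.0 and 107 CPM of C1qa. Hence the Kupffer level was above the hepatocyte level in 4 of 4 rats, and the fitted difference, with the rat as a block, was 5.65 ± 0.16 on the log2 scale (SE). C1qb (B chain) and C1qc (C chain) differed by 5.58 and 5.60 on that scale. Lyz2 myeloid cells, a mixed gate on Lyz2, S100a4, Coro1a and Cd74 that also held conventional dendritic cell markers (130 to 264 CPM) and T and NK markers (113 to 326 CPM), were next in order with 423 to 890 CPM of C1qa (889.7 in LEW-2), while T and NK, endothelial and mesenchymal gates all lay between 68.6 and 230.0 CPM (LEW-2 mesenchymal) and overlapped one another.

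Fcna, encoding ficolin-A, followed the same order. It reached 1115, 1158, 1696 and 1999 CPM in the Kupffer gates of DA-1, DA-2, LEW-1 and LEW-2 and 18.9 to 27.1 CPM in hepatocytes, a log2 difference of 5.68 ± 0.15. Lyz2 myeloid cells again stood second, at 68.7 to 288 CPM, and overlapped only with the mesenchymal gate (47.3 to 102 CPM). These Fcna levels were 6.16% to 14.4% of the Kupffer level, and those of C1qa 6.35% to 15.1%. Beside them stood 4.25% to 10.3% for the gate marker Clec4f and 4.16% to 10.5% for the receptor gene Vsig4. The part of Kupffer RNA in the Lyz2 myeloid gates was not tested. Cfd, encoding factor D, is best known as a fat-cell product, yet here it was a Kupffer gene, with 378, 469, 474 and 657 CPM in DA-1, DA-2, LEW-1 and LEW-2 against 6.4 to 10.8 CPM in hepatocytes (log2 difference 5.37 ± 0.15). Its Lyz2 myeloid level, 34.1 to 99.2 CPM, overlapped with none of the Kupffer values.

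Little C1q or Fcna was found in TLH hepatocyte gates. The C1qa level there was 1.02% to 2.27% of the Kupffer level and that of Fcna 1.11% to 2.15%. Vsig4, a receptor gene outside the gate, stood at 1.19% to 2.28%. Clec4f, a Kupffer cell lectin, stood at 0.78% to 1.62%, but it is a gate marker and the hepatocyte gate limits it. In the immune-enriched libraries C1qa reached 11863 CPM in DA and 13410.4 CPM in LEW Kupffer-gated cells, and only 1.0 and 5.0 CPM in the hepatocytes captured beside them. C1qa was also found at 1372 and 921 CPM in Lyz2 myeloid cells there, 11.6% and 6.87% of the Kupffer level. Vsig4 stood at 0.24% and 0.12% there, and the gate marker Clec4f at 1.53% and 0.62%. The erythroid gate held 31.9 CPM of C1qa in DA and 973 CPM in LEW, 0.27% and 7.25% of the Kupffer level. Beside it stood 0.092% and 7.13% for Vsig4 and 0.17% and 6.27% for Clec4f. These single libraries have no replicate. Thinned to 1000 UMIs, 97.9% and 97.2% of immune-enriched Kupffer-gated cells of DA and LEW kept a C1qa UMI, against 1.1% and 0.8% of T and NK cells.

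**Figure D1:**
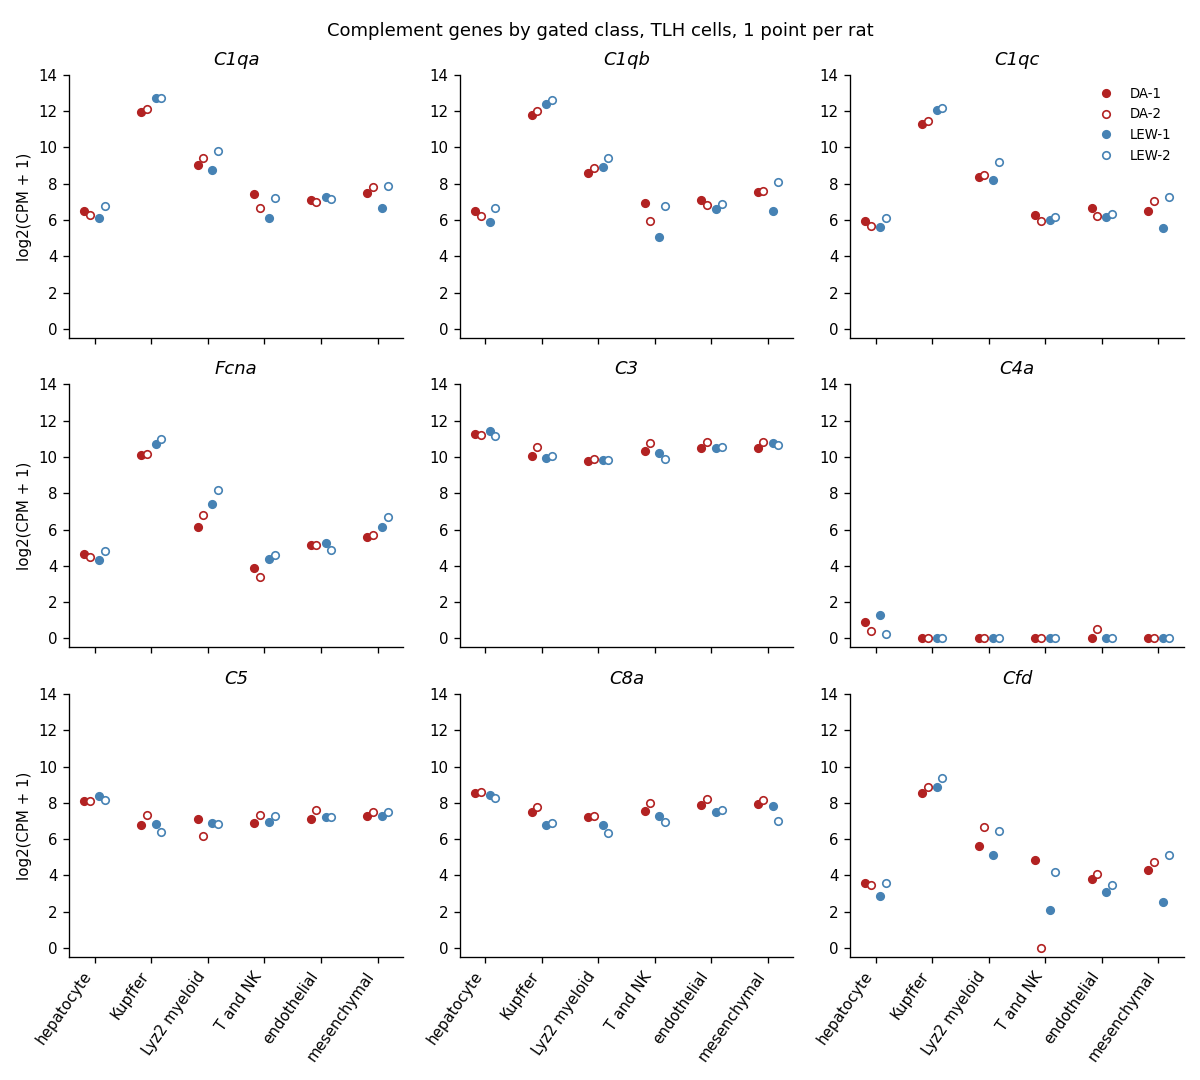
Level of each complement gene in 6 gated classes of TLH cells, as log2(CPM + 1), with 1 point per rat (red DA, blue LEW, filled replicate 1, open replicate 2). C1qa, C1qb, C1qc, Fcna and Cfd peak in the Kupffer gate, C3, C5 and C8a are highest in hepatocytes and C4a lies at or near 0 throughout.

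C3, C5 and C8a showed the opposite order. C3 stood at 2455, 2393, 2714 and 2262 CPM in the hepatocyte gates of DA-1, DA-2, LEW-1 and LEW-2 and at 1055, 1487, 978 and 1060.3 CPM in their Kupffer gates. C5, the precursor of the C5a attractant, was at 270.1 to 331 CPM in hepatocytes and 83.2 to 162 CPM in Kupffer cells, and C8a, the alpha chain of C8, at 301 to 386 CPM against 107 to 216 CPM. Hepatocyte and Kupffer levels overlapped for none of the 3 genes. The log2 differences (Kupffer minus hepatocyte) were -1.44 ± 0.13 for C3, -1.64 ± 0.13 for C5 and -1.55 ± 0.13 for C8a.

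Albumin, a hepatocyte product, had a like deficit. The Kupffer gates held a median of 44.9% of the hepatocyte level of C3, 37.1% of C5 and 42.8% of C8a, beside 45.3% for Alb (range 35.2% to 61.8%, n = 4 rats). T and NK cells held 47.6%, 48.8% and 47.4% of the hepatocyte level of the 3 genes, beside 53.9% for Alb. In the immune-enriched DA library, where Alb in Kupffer-gated cells was at 0.75% of the hepatocyte level, C3 stood at 75.1 CPM, 3.1% of the hepatocyte level, from 44 UMIs, and C5 and C8a at 1 UMI each. Kupffer-gated cells of the LEW library held 14.3% of the hepatocyte level of C3 beside 10.6% of Alb. T and NK cells held 18.8% of C3 beside 13.2% of Alb in LEW, and 2.53% beside 1.55% in DA. Lyz2 myeloid cells held 15.3% beside 8.80% in LEW, and 5.29% beside 1.15% in DA. Whether Kupffer cells contribute any C3 was not tested.

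C4a, the first copy of the C4 gene pair, was close to undetected. Kupffer gates held 0 UMIs in all 4 TLH rats, which allows up to 2.28 to 5.11 CPM at 3 counts per library, and the hepatocyte gates held 6, 3, 14 and 1 UMIs in DA-1, DA-2, LEW-1 and LEW-2. The Visium sections held 18 and 12 UMIs over all spots. C4b, its near-identical copy, was also near 0, averaging 0.099 ± 0.115 CPM in TLH hepatocytes (SD, n = 4). The treatment of reads that match both copies was not tested, so both values are uncertain.

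The nuclei repeated the sources. C1qa was at 993, 1009, 624 and 1117 CPM in the Kupffer gates of DA-1, DA-2, LEW-1 and LEW-2 and at 10.1 to 26.0 CPM in hepatocyte nuclei, a log2 difference of 5.45 ± 0.29. Fcna differed by 6.87 ± 0.41, C1qc by 5.91 ± 0.32 and Cfd by 4.75 ± 0.49, the last from 6 to 14 UMIs per Kupffer gate. C3 (-1.13 ± 0.25), C5 (-1.01 ± 0.24) and C8a (-1.20 ± 0.24) were lower in Kupffer nuclei. In CPM, without the TMM scaling of these differences, Kupffer nuclei held a median of 62.1% of the hepatocyte level of C3. The median was 68.2% for C5 and 57.1% for C8a, beside 58.8% for Alb. Of the 8 genes that passed the count filter, 5 were called higher and 3 lower in Kupffer cells, in TLH cells and in nuclei, where 51.1% and 19.9% of all tested genes were called. The choice of genes used this contrast, and nothing is read from those counts.

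The promoters of the genes with the plainest source are printed here, because the genes fall into a Kupffer and a hepatocyte group and regulators of both lineages are known. Each line is the 250 bases before the annotated start in RefSeq (build GRCr8), 5′ to 3′ on the gene's strand, at chr5:154419934-154420183 for C1qa, chr5:154407828-154408077 for C1qb, chr3:28847238-28847487 for Fcna, chr9:2201340-2201589 for C3 and chr5:124866632-124866881 for C8a, all on the minus strand. Capitals mark motifs searched on both strands, namely GAGGAA for the myeloid factor PU.1, TTGCNNAA for C/EBP, GTTAAT for HNF1, CAAAGT for HNF4 and the consensus of NF-kappaB.
C1qa: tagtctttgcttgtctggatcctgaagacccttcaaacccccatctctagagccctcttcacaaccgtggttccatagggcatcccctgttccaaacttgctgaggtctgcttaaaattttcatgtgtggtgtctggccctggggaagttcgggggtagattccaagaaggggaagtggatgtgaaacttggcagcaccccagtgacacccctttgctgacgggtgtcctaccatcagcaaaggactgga
C1qb: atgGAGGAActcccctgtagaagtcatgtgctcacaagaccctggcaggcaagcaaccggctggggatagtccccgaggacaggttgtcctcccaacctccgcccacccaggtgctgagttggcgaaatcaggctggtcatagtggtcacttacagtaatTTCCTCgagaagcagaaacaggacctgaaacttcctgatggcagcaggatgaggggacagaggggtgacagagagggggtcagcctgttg
Fcna: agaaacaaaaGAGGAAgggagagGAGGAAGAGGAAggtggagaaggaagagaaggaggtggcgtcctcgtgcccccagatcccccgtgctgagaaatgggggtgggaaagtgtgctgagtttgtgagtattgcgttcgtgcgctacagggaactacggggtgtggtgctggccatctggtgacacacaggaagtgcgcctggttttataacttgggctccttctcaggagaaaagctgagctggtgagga
C3: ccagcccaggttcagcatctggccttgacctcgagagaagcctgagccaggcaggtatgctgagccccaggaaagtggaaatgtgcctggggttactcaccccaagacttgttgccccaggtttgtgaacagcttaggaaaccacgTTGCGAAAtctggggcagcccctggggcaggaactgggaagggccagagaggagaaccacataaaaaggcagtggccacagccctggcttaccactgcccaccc
C8a: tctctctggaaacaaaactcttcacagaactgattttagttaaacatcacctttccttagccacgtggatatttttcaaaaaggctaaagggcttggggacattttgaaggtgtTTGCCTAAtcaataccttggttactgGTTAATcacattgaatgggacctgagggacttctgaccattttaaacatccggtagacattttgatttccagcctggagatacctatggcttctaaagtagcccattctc
PU.1 letters occurred 2 times in C1qb and 3 times in Fcna, the last 2 of them end to end, and in 23.3% of the 33469 rat promoters. C/EBP letters occurred 1 time each in C3 and C8a (9.22% of promoters), and HNF1 letters 1 time in C8a and 2 times in C5 (6.45%). The C1qa, C4a and Cfd windows held none of the 5 motifs, and HNF4 (12.9%) and NF-kappaB (1.30%) letters were in none of the 8 windows. A match is a description of letters and not of binding. C1qb, C1qc and C1qa lie side by side in that order on chromosome 5, and C8a lies next to C8b.

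The other pathway genes also split by source. In TLH cells 31 of them passed the count filter, 9 were higher and 17 lower in Kupffer cells (edgeR quasi-likelihood, adjusted p under 0.05), where 24.6% and 26.5% of all genes were higher and lower. Their median difference was -1.14 on the log2 scale, against -0.04 over all genes. In nuclei 7 were higher and 19 lower of 31, where 10.6% and 9.31% of all genes were, with a median of -0.98 against -0.07.

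The Kupffer group held the properdin gene Cfp (log2 difference 5.50 ± 0.15, 893 ± 160 against 15.7 ± 3.02 CPM, mean ± SD, n = 4 rats), whose product stabilises the alternative C3 convertase. It also held the receptors Vsig4 (5.69 ± 0.15), which binds C3b, C5ar1 (5.44 ± 0.24), C3ar1 (5.14 ± 0.49) and the integrin chain Itgb2 (5.49 ± 0.17). The terminal component C6 stood apart from its partners in the membrane attack complex. It was 2.84 ± 0.12 higher in Kupffer TLH cells (527 ± 69.3 against 58.6 ± 7.45 CPM) and 1.24 ± 0.23 higher in Kupffer nuclei, whereas C8b, C8g and C9 were lower in TLH Kupffer cells (-1.40 ± 0.13, -1.25 ± 0.13 and -1.48 ± 0.13). In immune-enriched cells C6 was at 1335 and 1035 CPM in DA and LEW Kupffer gates. Hepatocyte gates also held C6, at 8.99% to 15.1% of the Kupffer level in TLH cells and 25.9% to 37.3% in nuclei. Vsig4 stood at 1.19% to 2.28% and 0.67% to 5.82% there. In immune-enriched hepatocytes C6 was at 2.22% and 3.59% of the Kupffer level in DA and LEW, beside 0.006% and 0.043% for Vsig4. C7, which joins C6 in that complex, was at 0 in the Kupffer gates of all 4 TLH rats and reached at most 13.5 CPM in any TLH class, in mesenchymal cells.

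The hepatocyte group held 17 genes, among them the C1 proteases C1r (-1.19 ± 0.13) and C1s (-1.23 ± 0.12), the lectins Mbl1 (-1.51 ± 0.13) and Mbl2 (-1.29 ± 0.14), the protease Masp2 and the soluble regulators C4bpa, Cfi, Clu and Vtn. C1r, unlike C1q, was higher still in mesenchymal gates, at 674 ± 98.5 CPM against 358 ± 23.9 CPM in hepatocytes (SD, n = 4 rats). The collectins were led by mesenchymal cells too. Colec11 passed the test as higher in Kupffer cells (0.35 ± 0.14), but its level was 63.8 ± 13.2 CPM in Kupffer, 40.5 ± 9.15 in hepatocyte and 1598 ± 191 CPM in mesenchymal TLH gates (SD, n = 4 rats). Colec10 was likewise highest in the mesenchymal gates, at 446 ± 30.9 CPM. Cd93 (2.41 ± 0.31) and Cr1l (1.20 ± 0.20) complete the 9 higher genes, and Cd93 was highest in endothelial gates (104 ± 13.2 CPM). Fcnb, the other rat ficolin, was at 0 UMIs in every Kupffer gate and at 4.72 to 393 CPM in Lyz2 myeloid TLH cells. Without TMM scaling the median difference over all genes moves by 0.33 in TLH cells and 0.40 in nuclei, and 71.3% and 88.5% of calls are then higher in Kupffer cells in place of 48.2% and 53.3%.

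In TLH libraries 94.0% to 97.3% of Kupffer-gated cells held UMIs of all 3 C1q chains and 1 cell of the 4 rats held none. The background in the same libraries was 0.569% to 1.58% of hepatocyte-gated cells, at median depths of 1788 to 2545 UMIs against 2090 to 3683 in Kupffer cells. The hepatocyte gate limits Kupffer markers. Among T and NK cells 3.33%, 1.20%, 0% and 2.90% held all 3 chains in DA-1, DA-2, LEW-1 and LEW-2, from 4, 1, 0 and 2 cells. Immune-enriched cells gave 94.7% and 100% in DA and LEW. Kupffer nuclei, with median depths of 1297 to 2531 UMIs, gave 52.1% to 58.8%.

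The share of each chain differed between cells and nuclei. C1qc made up 25.3%, 24.5%, 26.1% and 25.8% of C1q UMIs in the TLH Kupffer gates of DA-1, DA-2, LEW-1 and LEW-2, and 25.4% and 25.6% in the immune-enriched libraries. In Kupffer nuclei it made up 41.2%, 40.9%, 33.2% and 33.8% of 330 to 445 C1q UMIs per library. Hence for C1qc every nuclear library lay above every cell library, and DA nuclei above LEW nuclei. Immune-enriched cells share the v3 chemistry of the nuclei but differ from them in material and preparation. The cause of the higher nuclear share was not tested. C1qb made up 33.2% to 36.0% in TLH cells and 22.3% to 24.7% in nuclei, and the immune-enriched DA and LEW cells stood between, at 31.6% and 28.5%. C1qa overlapped between TLH cells and nuclei (38.4% to 40.7% and 35.2% to 43.9%) and was at 43.0% and 45.9% in immune-enriched cells, above every TLH rat. For C1qa and C1qb the cell libraries thus differed among themselves as well. Visium sections, which capture whole tissue, stood between, with 31.5% and 30.8% C1qc. These are shares of UMIs and not of transcripts, and they have no test because the strain values entered the choice of the genes.

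**Figure D2:**
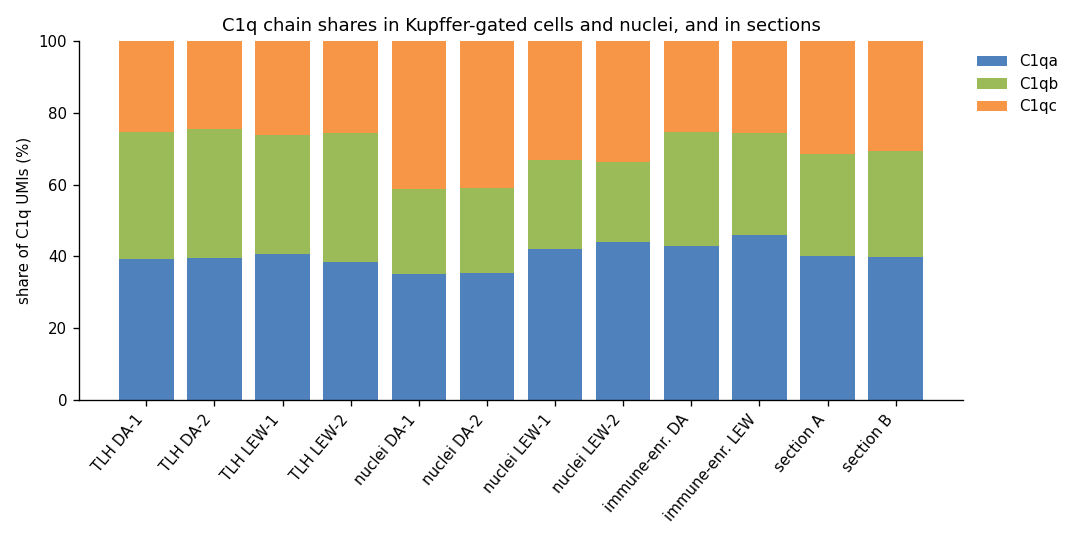
Share of C1qa, C1qb and C1qc among all C1q UMIs, in percent, in the Kupffer-gated cells or nuclei of each library and over all spots of each Visium section. The C1qc share is 24.5% to 26.1% in cells of both kinds and 33.2% to 41.2% in nuclei.

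Between strains, the Kupffer-made genes were higher in LEW than in DA among TLH cells. Both LEW rats lay above both DA rats for C1qa, C1qb, C1qc, Fcna and Cfd (values above for C1qa, Fcna and Cfd). Over all 6390 genes tested, 26.7% had both LEW rats above both DA rats, 22.9% had them below, and 7.06% were called by edgeR, so that nothing is read from the order of the rats alone. C1qb was at 3535 and 4049 CPM in DA-1 and DA-2 and at 5436 and 6339 CPM in LEW-1 and LEW-2. C1qc was at 2524 and 2756 CPM in DA and at 4280.4 and 4548 CPM in LEW. Cfd had the smallest gap, from 469 CPM in DA-2 to 474 CPM in LEW-1. The log2 differences (LEW minus DA) were 0.65 ± 0.17 for C1qa, 0.61 ± 0.17 for C1qb, 0.71 ± 0.17 for C1qc, 0.67 ± 0.17 for Fcna and 0.38 ± 0.19 for Cfd.

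In Kupffer nuclei the order was turned for C1qb, C1qc and Fcna. C1qc was at 1164 and 1162 CPM in DA-1 and DA-2 against 492 and 859 CPM in LEW-1 and LEW-2, and C1qb at 667 and 671 CPM against 366 and 568 CPM. Fcna was at 907 and 562 CPM in DA against 273 and 491 CPM in LEW. For these 3 genes both LEW rats lay below both DA rats, whereas C1qa overlapped, with LEW-1 lowest and LEW-2 highest. The log2 differences were -0.76 ± 0.37 for C1qc, -0.50 ± 0.36 for C1qb, -0.93 ± 0.41 for Fcna, -0.18 ± 0.37 for C1qa and -0.49 ± 0.56 for Cfd. Over all 3093 genes tested in Kupffer nuclei both LEW rats lay below DA for 21.6% and above for 19.8%, and 0.517% were called. Of the 2847 genes tested in both materials, 11.2% had the LEW rats on opposite sides of the DA rats in cells and in nuclei. The change of direction between cells and nuclei was not tested.

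**Figure D3:**
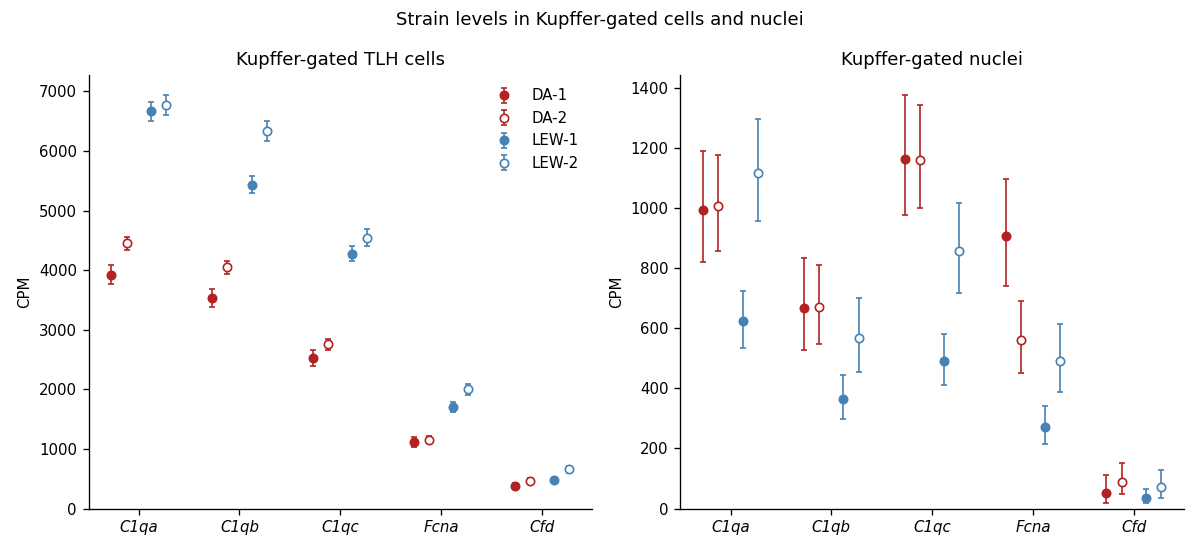
Level of the 5 Kupffer-made genes in Kupffer-gated TLH cells (left) and nuclei (right), in CPM on linear axes that start at 0, with 1 point per rat and exact 95% Poisson bars that cover counting error only. LEW (blue) is above DA (red) for each gene in TLH cells, and below it for C1qb, C1qc and Fcna in nuclei.

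The Kupffer markers themselves moved with these differences. In TLH cells the 7 gate markers summed to 6944 and 7608 CPM in DA-1 and DA-2 and to 10538 and 10912 CPM in LEW-1 and LEW-2, while hepatocyte markers summed to 69195 and 81029 CPM in DA and 55586 and 64826 CPM in LEW. The Kupffer-marker sum includes Cd163, which the study lists among its top DA-enriched genes, so it may not be neutral between strains. Per 100 Kupffer-marker UMIs the gap narrowed. C1qa then stood at 56.5 and 58.5 UMIs in DA and 63.2 and 62.1 in LEW, and C1qc at 36.4 and 36.2 against 40.6 and 41.7. Fcna stood at 16.05 and 15.2 UMIs in DA-1 and DA-2 against 16.10 and 18.3 in LEW-1 and LEW-2, with almost no gap. The strains overlapped for C1qb (50.9 and 53.2 against 51.6 and 58.1). Cfd overlapped too, with 5.45 and 6.16 UMIs in DA and 4.501 and 6.02 in LEW. With free hepatocyte RNA subtracted, an alternative chosen after seeing the data, the log2 differences were 0.33 ± 0.26 for C1qa, 0.29 ± 0.27 for C1qb, 0.40 ± 0.26 for C1qc and 0.36 ± 0.26 for Fcna.

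In nuclei the gate markers summed to 5194 and 4764 CPM in DA and 3205 and 4977 CPM in LEW. Per 100 Kupffer-marker UMIs, C1qc stayed apart at 22.4 and 24.4 UMIs in DA-1 and DA-2 and 15.3 and 17.3 in LEW-1 and LEW-2, and Fcna at 17.5 and 11.8 against 8.51 and 9.86. C1qb was also apart, by a smaller gap, at 12.9 and 14.1 against 11.4 and 11.4. C1qa overlapped at 19.1 and 21.2 against 19.5 and 22.4. The part of the marker shift in the strain values was not tested.

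In the immune-enriched libraries, with 57 DA and 125 LEW Kupffer-gated cells, C1qc was at 7017 CPM (95% Poisson interval 6804 to 7235) in DA and 7496 CPM (7368 to 7626) in LEW. C1qa and Fcna were also higher in LEW (Fcna 2294 and 3037 CPM), while C1qb (8736 and 8337 CPM) and Cfd (1333 and 832 CPM) were higher in DA. Per 100 Kupffer-marker UMIs the order turned for C1qa (58.3 in DA and 50.3 in LEW) and C1qc (34.5 and 28.1), and Fcna was level (11.3 and 11.4), where the gate markers summed to 20351 CPM in DA and 26650.2 CPM in LEW. Cfd in Lyz2 myeloid cells was at 379 CPM in DA and 41.4 CPM in LEW. With 1 library per strain there is no test.

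In hepatocytes themselves the strains overlapped for C3 in TLH cells, while in nuclei both LEW rats were above DA for C3 and C5. In TLH hepatocytes the log2 difference of C3 was 0.06 ± 0.13. C5 was at 270.1 and 278 CPM in DA and 331 and 280.2 CPM in LEW (0.18 ± 0.13), and C8a at 378 and 386 CPM in DA and 338 and 301 CPM in LEW (-0.24 ± 0.13). Both LEW rats thus lay above DA for C5 and below DA for C8a, as for 24.0% and 28.0% of all genes tested there. In hepatocyte nuclei C3 was at 2886 and 3475 CPM in DA and 5228 and 4588 CPM in LEW (0.66 ± 0.43), above DA in both LEW rats, an order that 18.8% of all genes tested had, with 18.9% below. C5 (0.40 ± 0.40) was also above DA in both LEW rats, at 442 and 452 CPM against 564 and 602 CPM, while C8a overlapped (0.09 ± 0.42). C1qa in the same nuclei, at 12.3 and 10.1 CPM in DA and 26.0 and 18.3 CPM in LEW, was at 1.0% to 4.16% of its Kupffer level over the 4 rats. Inside the Kupffer gates C8a was at 179 and 216 CPM in DA and 107 and 115 CPM in LEW TLH cells (-0.87 ± 0.19), and at 582 and 581 CPM in DA and 915 and 813 CPM in LEW nuclei (0.61 ± 0.34). Alb in the same TLH gates averaged 15625 ± 5000 CPM in DA and 11479 ± 272 CPM in LEW (SD, n = 2 rats each). By rat it was at 12089.5 CPM in DA-1, 19160.5 in DA-2, 11286.7 in LEW-1 and 11671 in LEW-2. Alb was thus lower in LEW, but DA-1 lay close to the LEW rats, unlike for C8a. In the Kupffer nuclei Alb was also lower in LEW (18065 and 19643 CPM in DA, 14010.4 and 16106 CPM in LEW), where C8a was higher.

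Of the 8 members tested in TLH Kupffer cells, 4 were called higher (the C1q chains and Fcna) and 1 lower (C8a) in LEW, where 7.06% of all tested genes were called. No member was called in TLH hepatocytes, in Kupffer nuclei or in hepatocyte nuclei, where 4.06% (1.91% higher and 2.15% lower), 0.517% and 1.61% of genes were. The choice of genes used these contrasts, and nothing is read from the counts.

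Among the other pathway genes, 1 was higher and 3 were lower of 31 tested in LEW Kupffer TLH cells, where 3.13% and 3.93% of all genes were higher and lower. Their median log2 difference was -0.22, against 0.00 over all genes. Vsig4, the C3b receptor, was at 944 and 1066 CPM in DA-1 and DA-2 and 1656 and 1654 CPM in LEW-1 and LEW-2 (0.69 ± 0.16, edgeR adjusted p = 0.0089). The call of Vsig4 was lost without LEW replicate 1 or LEW replicate 2, which leaves 1 LEW rat, at log2 differences of 0.73 and 0.67. It was also lost with the replicate block (0.69 on the log2 scale, edgeR adjusted p = 0.055) and with free RNA subtracted (0.37, edgeR adjusted p = 0.82). With DESeq2 the adjusted p of Vsig4 was 0.035. In nuclei Vsig4 overlapped, with 257 and 485 CPM in DA and 136 and 278 CPM in LEW (-0.86 ± 0.42, adjusted p = 0.55). The 3 genes lower in LEW TLH Kupffer cells were the hepatocyte products Mbl1 (-1.02 ± 0.22, adjusted p = 0.0044), C8g (-1.02 ± 0.20, 0.0023) and C1s (-0.67 ± 0.18, 0.020). Hepatocyte markers were also lower in these LEW gates, as given above, and their part in the 3 lower genes was not tested. Each of the 3 lost its call under at least 1 alternative. With DESeq2 the adjusted p was 0.145 for Mbl1, 0.189 for C1s and 0.017 for C8g. Mbl1 also lost its call without DA replicate 2 (adjusted p = 0.128) or LEW replicate 1 (0.069), C8g without LEW replicate 1 (0.066) or with free RNA subtracted (0.262, at a larger log2 difference of -1.498), and C1s without LEW replicate 1 (0.181) or LEW replicate 2 (0.205), with the stricter gate (0.05004), at a LEW minimum of 1500 UMIs (0.084) and with free RNA subtracted (0.989, at -0.36).

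No other pathway gene was called between strains in TLH hepatocytes (31 tested, 6 with unadjusted p under 0.05), in Kupffer nuclei (21 tested, 1 such gene) or in hepatocyte nuclei (30 tested, 0 such genes) by edgeR, and DESeq2 called none either. The gene closest to the threshold was C4bpb, a chain of the C4b-binding protein, in TLH hepatocytes (0.55 ± 0.13, edgeR adjusted p = 0.056).

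Across the 24 TLH sums of 6 classes and 4 rats, C1q was followed most closely by Npc2, Csf1r, Atp1b3, Axl and Psap. Of 6260 genes outside the marker and complement lists, Npc2, a lysosomal cholesterol carrier, had the highest Pearson correlation of log2 CPM with the mean of the C1q chains (0.975), followed by Csf1r (0.958), the receptor for macrophage colony-stimulating factor, Atp1b3 (0.956), Axl (0.956), a receptor for dying cells, and Psap (0.95). Fcna was followed most closely by Anxa3 (0.970), Ccl6 (0.968), Ctsh (0.958), Npc2 (0.956) and Grn (0.948), and Cfd by Ctss (0.934), Lilra5 (0.929), Npc2 (0.918), Csf1r (0.914) and Psap (0.913). C3 was followed by the plasma protein genes F2 (0.974), which encodes prothrombin, Plg (0.968), Itih3 (0.964) and Itih1 (0.964), and by LOC297568 (0.958). The sums of a rat share a library and its free RNA, so these values are a description.

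Along the lobule, hepatocyte nuclei with a pericentral profile held more C3 and C8a than those with a periportal profile, a difference that was smaller and no longer called when nuclei were matched for their hepatocyte-marker share. Each nucleus was scored with 7 periportal genes (such as Ass1 and Hal) and 7 pericentral genes (such as Cyp2e1 and Glul), none of them a complement gene, and the nuclei of each rat were ranked and cut into 3 equal parts. In LEW-1, where 153 nuclei (3.27%) had a score of 0, the cut between the middle and periportal parts fell at 0. Some nuclei with that score were thus counted as periportal. C3 was at 4463, 4096, 5218 and 5183 CPM in the pericentral part of DA-1, DA-2, LEW-1 and LEW-2 and at 1617, 2508, 4795 and 3743 CPM in the periportal part, lower periportally in 4 of 4 rats. C8a was at 1559, 1547, 1328 and 1375 CPM pericentrally and 944, 976, 1285 and 1101 CPM periportally, also lower in 4 of 4 rats. C5 was nearly level, at 405 to 573 CPM pericentrally and 445 to 593 CPM periportally, and slightly higher periportally in each rat.

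With the rat as a block, C3 fell by 0.99 on the log2 scale (SE 0.30, edgeR adjusted p = 0.031) and C8a by 0.74 (SE 0.25, adjusted p = 0.046) from pericentral to periportal nuclei. The log2 difference of C5 was -0.19 ± 0.21 (adjusted p = 0.52) and turned to 0.12 without TMM scaling, which moves the median of all genes by 0.30. C1qa, present there at 5.99 to 32.4 CPM, fell by 0.84 (SE 0.24, adjusted p = 0.026) and was lower in 3 of 4 rats, with DA-2 at 9.07 CPM periportally and 5.99 CPM pericentrally, while C1qb (-0.52 ± 0.27, adjusted p = 0.18) and C1qc (-0.41 ± 0.28, adjusted p = 0.29) did not pass. Fcna, Cfd and C4a did not pass the count filter. In all, 3 of the 6 members tested were lower and none higher, where 21.8% of all genes were called, 14.1% lower and 7.68% higher (35.2% of calls higher, and 76.7% without TMM). The call of C3 was lost without DA replicate 1 (adjusted p = 0.058), DA replicate 2 (0.194) or LEW replicate 2 (0.068), and that of C8a without the same rats (0.078, 0.274 and 0.114) and without TMM (0.132). C1qa was not called at 5% mitochondrial UMIs at most (0.080), with the nuclei cut into 4 parts (0.054), without DA replicate 2 (0.066), LEW replicate 1 (0.082) or LEW replicate 2 (0.069), without TMM (0.097) or with DESeq2 (0.085). The median of the 6 was -0.63, against 0.05 over all genes.

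The 2 ends of the score also differed in depth and RNA content. Median UMIs were 2516, 2908, 1796 and 2350 in the periportal nuclei of DA-1, DA-2, LEW-1 and LEW-2, against 1281, 1431.5, 1404 and 1900.5 in the pericentral nuclei. Hepatocyte markers made up a median 5.20%, 5.19%, 13.7% and 5.25% of UMIs in the periportal nuclei of DA-1, DA-2, LEW-1 and LEW-2, against 12.7%, 10.3%, 13.2% and 8.46% in the pericentral nuclei. When nuclei were ranked within 10 strata of that share, a comparison added after seeing the data, the log2 difference was -0.14 ± 0.05 for C3 (adjusted p = 0.055), -0.15 ± 0.06 for C8a (0.069) and -0.23 ± 0.19 for C1qa (0.53). None of the 3 members kept its call, and 11.9% of all genes were called (5.98% lower and 5.97% higher). C1qb, C1qc and C5 turned to 0.03, 0.13 and 0.09. Periportal nuclei stayed deeper within strata, at medians of 1634, 1888.5, 1660.5 and 2133.5 UMIs against 1513, 1692, 1386.5 and 1995 in the same order of rats. Depth was thus not matched there. C3 and C8a were still lower periportally in 4 of 4 rats, C3 with 2909, 3466, 5244 and 4308 CPM periportally against 3020.3, 3597, 5447 and 4910.3 CPM pericentrally in DA-1, DA-2, LEW-1 and LEW-2.

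**Figure D4:**
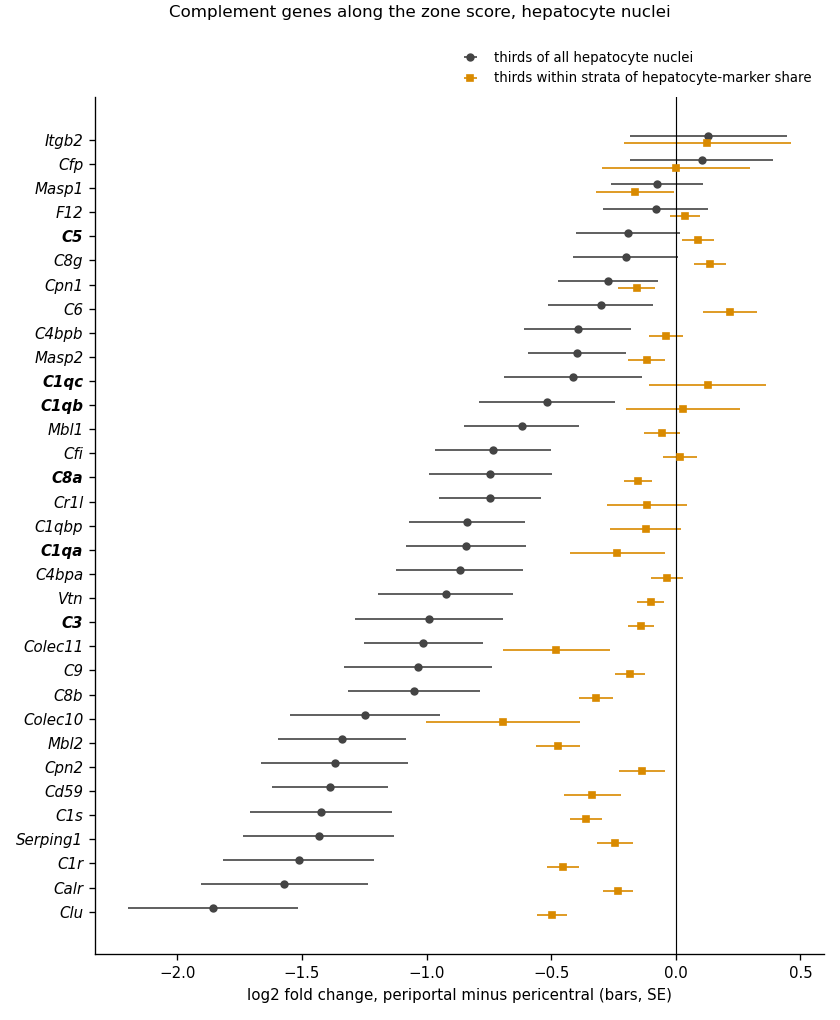
Log2 fold change of the 6 members and 27 other complement genes tested between periportal-scored and pericentral-scored hepatocyte nuclei, with SE bars, for equal parts of all nuclei (grey circles) and for parts taken within strata of the hepatocyte-marker share (orange squares), members in bold. The circles of C3 and C8a lie at -0.99 and -0.74 and their squares at -0.14 and -0.15.

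The other complement genes were mostly lower periportally too. Of 27 tested, 17 were lower and none higher, where 14.1% and 7.68% of all genes were, with a median of -0.87. Within strata 9 of the 27, all of them among those 17, were called lower, where 5.98% of all genes were. These 9 were C1r, C1s, Mbl2, C8b, C9, the C1 inhibitor gene Serping1, the terminal pathway inhibitor Clu, the membrane regulator Cd59 and Calr. The differences were smaller within strata, from -1.86 to -0.50 for Clu, -1.51 to -0.45 for C1r, -1.34 to -0.47 for Mbl2 and -1.43 to -0.24 for Serping1. Within strata Clu was at 864, 918, 1157 and 851 CPM in the pericentral nuclei of DA-1, DA-2, LEW-1 and LEW-2 and at 699, 652, 896 and 558 CPM in the periportal nuclei (-0.50 ± 0.06, edgeR adjusted p = 6.98e-12). C1r was at 530.5, 729.6, 869 and 638 CPM against 436, 511, 661 and 484 CPM (-0.45 ± 0.06, adjusted p = 1.96e-09). Mbl2 differed by -0.47 ± 0.09 (adjusted p = 6.67e-06). Within strata 8 of the 9 were lower in 4 of 4 rats, and Cd59 in 3 of 4. The equal-part calls of C1r, Clu and Mbl2 were lost without DA replicate 2 (adjusted p = 0.097, 0.079 and 0.072).

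On the Visium sections the Kupffer-made genes leaned to the periportal side and the hepatocyte-made members were nearly flat. Spots, each a small region that can hold several cells, were ranked by the zone score used for nuclei and cut into 3 equal parts. C1qa was 1.61 times as abundant, in CPM over the spots, in periportal as in pericentral spots of section A (95% interval 1.5 to 1.72) and 1.68 times in section B (1.57 to 1.79). C1qb stood at 1.53 and 1.64, C1qc at 1.54 and 1.65, and Fcna at 2.00 (1.75 to 2.30) and 2.13 (1.88 to 2.43). The 3 C1q ratios lay within each other's intervals in each section, and the Fcna intervals lay above those of the C1q chains. Intervals cover counting error only, and spots are not replicates.

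Kupffer markers shifted alongside. Their sum went from 273 to 525 CPM from pericentral to periportal spots in section A and from 294 to 627 in section B, and the ratios were 1.62 and 1.67 for Clec4f, 2.10 and 2.10 for Cd5l and 3.0 and 4.13 for Marco. Spots were also ranked by their Kupffer-marker share alone. From the low to the high part C1qa went from 130.0 to 225 CPM in section A and from 128 to 258 in section B, and Fcna from 26.9 to 62.3 and from 33.8 to 73.1, whereas C8a went from 440.3 to 420.3 and from 479 to 455. C3 went from 8010.3 to 8256 CPM and from 8380 to 8734 CPM, and C5 from 305 to 309 CPM and from 305 to 323 CPM. Vsig4 (1.85 and 2.00), C6 (1.64 and 1.65) and Cfp (1.40 and 1.54) were also above 1 in both sections. In spots, more Kupffer cells and more RNA per cell cannot be told apart. Cfd was at 1.15 in section A, with an interval of 0.98 to 1.36 that includes 1, and at 1.53 (1.31 to 1.78) in section B.

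C3 was at 8130 and 8549 CPM over all spots, with ratios of 1.03 (1.02 to 1.04) and 1.05 (1.04 to 1.06). C5 stood at 1.04 and 1.03 with intervals that include 1, and C8a at 0.97 (0.94 to 1.01) and 0.93 (0.89 to 0.96). C1r (0.86 and 0.85), C1s (0.93 and 0.89) and Clu (0.83 and 0.84), which were lower periportally in nuclei within strata, were below 1 in both sections, with intervals that exclude 1. Other genes called within strata lay at or near 1, namely Serping1 (1.02 and 1.00), C9 (1.00 and 0.99) and C8b (0.98, with an interval that includes 1, and 0.94). Alb stood at 1.17 and 1.21, above C3, C5 and C8a in both sections. For C3, in CPM, the Wistar sections therefore did not show the pericentral excess seen in the equal parts of DA and LEW nuclei.

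**Figure D5:**
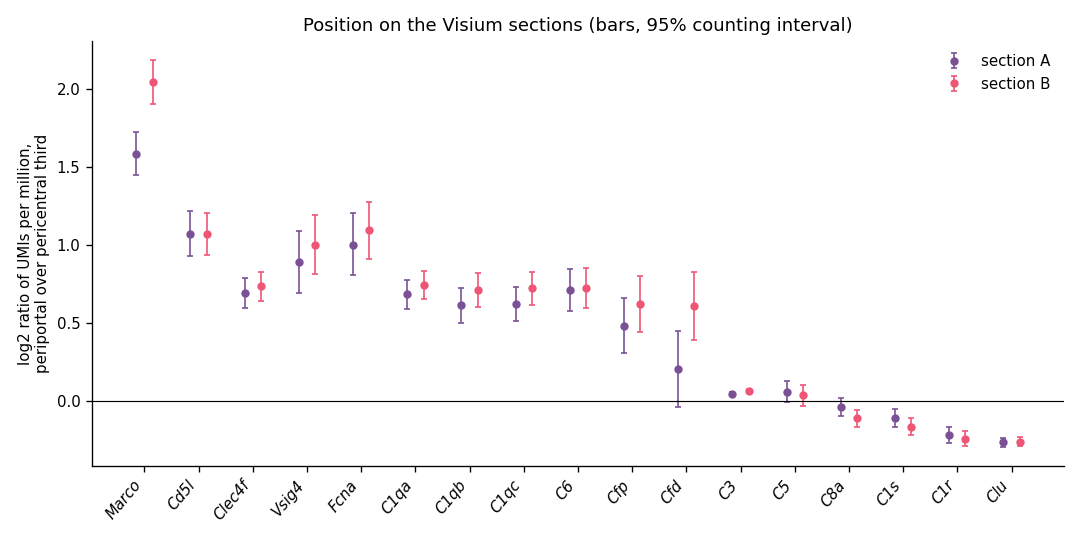
Ratio of CPM between periportal-scored and pericentral-scored spots, on a log2 axis, for Kupffer markers, complement genes of both sources and Clu, in section A (purple) and section B (pink), with 95% counting intervals. Kupffer-made genes lie above 0, C3, C5 and C8a lie near 0, at ratios of 0.93 to 1.05, and C1s, C1r and Clu lie below it.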

How the data were processed

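UMI counts of 12 libraries were analysed: 4 TLH, 4 nuclei and 2 immune-enriched libraries and 2 Visium sections. The authors deposited unnormalized UMI counts for each gene in each barcode, made with Cell Ranger 3.1.0 or Space Ranger 1.1.0 on the custom build Rattus_norvegicus.custom_6.0.98, as the submitters' processing notes name them. TLH and immune-enriched matrices held no gene names, and names were taken by row order from the nuclei libraries, whose gene list has the same length. Totals were 61441846 to 92484173 UMIs in TLH, 8039397 to 15186970 in nuclei, 48255870 and 60005133 in immune-enriched libraries and 34449562 and 34827603 in sections.

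Barcodes were kept from 1500 UMIs in TLH DA-1, 2000 in other TLH libraries and 1000 in nuclei and immune-enriched libraries, with mitochondrial shares of at most 30%, 20% and 40% in TLH DA-1, DA-2 and LEW, 50% in immune-enriched cells and 10% in nuclei. For the LEW TLH libraries the study's methods state 1500, and 2000 was used with the aim of leaving the study's number of cells. All Visium spots were kept. A class needed 5 UMIs of 3 of its markers in cells or 3 UMIs of 2 markers in nuclei. Barcodes in which a second class had over 50% of the marker UMIs of the top class were left out as mixed (0.66% to 2.53% of TLH cells). With fewer UMIs of the second class a barcode stayed in its top class, even where it passed both gates. No doublet caller was run. Hepatocytes needed 3.0% hepatocyte-marker UMIs and at most 1 UMI of any other class list, or 1 per 2000 UMIs where that was more. A low level of Kupffer markers in the hepatocyte class was therefore set by the gate. Cells of no class made up 13.3% to 22.8% of the TLH libraries.

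UMIs were summed per rat and class and tested with edgeR 4.0.16 (quasi-likelihood, TMM, filterByExpr, Benjamini-Hochberg over all tested genes, threshold 0.05) in R 4.3.3, with the rat as a block for the source and zone comparisons. The 2 rats per strain set the spread behind strain p-values. Replicate numbers did not pair TLH or nuclei samples of the strains (correlation of same-numbered deviations -0.16 to 0.07). Alternatives were DESeq2 1.42.0, other scaling and filters, blocks, stricter gates and leaving out each rat. On simulated counts edgeR recovered 90.0% to 98.5% of 200 genes changed by 2 on the log2 scale over 4 comparisons of 2745 to 8543 genes, with 5 to 13 false calls. The simulation had a fixed dispersion and no free RNA. Its changes were larger than the strain differences given here, so the recovery does not apply to those. Poisson, binomial and ratio intervals (95%, exact) cover counting error only. Genes named are the 9 members, the complement list, part of which is not reported here, and the 5 genes most correlated with C1q, Fcna, C3 and Cfd. Members and lists were chosen with earlier results of these data known.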

Additional observations from a re-analysis of the deposited data

Results flagged for a closer look

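In total 4 genes ordered the strains one way in Kupffer-gated TLH cells and the opposite way in Kupffer-gated nuclei. In each, every LEW rat lay on one side of every DA rat in cells and on the other side in nuclei, as did 11.2% of the 2847 genes tested in both. The log2 ratio of mean CPM, LEW over DA, was 0.63 in TLH cells and -0.52 in nuclei for C1qb, 0.74 and -0.78 for C1qc, 0.70 and -0.94 for Fcna, and -0.83 and 0.57 for C8a. The difference between cells and nuclei was not tested, and rat, chemistry and material differ between them. Kupffer markers ordered the strains as C1qb, C1qc and Fcna did in TLH cells, and overlapped in nuclei. Of 22 sets of 4 rat values examined with Dixon's test, none passed the critical value for 4 samples. The C1qa zone ratio in hepatocyte nuclei came closest, a gap share of 0.8284 just under that value, with DA-2 at 0.60 and the other 3 rats at -0.96 to -0.69 (log2 periportal over pericentral).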

How the results depend on the processing

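The count of genes called between strains in Kupffer-gated TLH cells was 451, and it was 126 with DESeq2, 213 with the replicate block, 713 with a crossed replicate block, 20 with free hepatocyte RNA subtracted, 328 at the stated LEW minimum of 1500 UMIs, and 253 to 735 with 1 rat left out (735 without DA replicate 1, 253 without LEW replicate 1, 265 without LEW replicate 2). In TLH hepatocytes 391 genes were called, 1030 without the low-count filter, 107 with the replicate block, 827 with the crossed block and 206 to 346 with 1 rat left out (206 without DA replicate 2). In Kupffer nuclei 16 were called, 82 without the filter, 30 with the replicate block, 26 with the stricter gate, 17 to 121 with 1 rat left out (70 without DA replicate 2, 65 without LEW replicate 1, 121 without LEW replicate 2) and 0 by edgeR with free RNA subtracted, where 117 of 1426 genes had an unadjusted p under 0.05 and DESeq2 was not run. In hepatocyte nuclei 168 were called, 504 without the filter, 509 with the replicate block, 407 without TMM and 90 to 278 with 1 rat left out (278 without DA replicate 2, 90 without LEW replicate 1). The strain samples share only a replicate number, so the block is no measure of a weaker effect. Between sources, 3963 to 4189 genes were called in TLH cells with 1 rat left out. In nuclei 1873 were called, 1219 with no replicate block and 1248 to 2187 with 1 rat left out (1248 without DA replicate 2). Between zones 1845 were called, 88 with no replicate block, 2836 without TMM, 997 within strata and 167 to 2334 with 1 rat left out (167 without DA replicate 2). The Visium ratio of C1qb in section A was 1.67 with spots cut into 4 parts and 1.53 with 3. A turn of direction was looked for in members of the zone comparison and, otherwise, only for genes called in the main fit. It was found for C1qb (0.029), C1qc (0.128), C5 (0.089) and Cfi (0.017) between zones within strata, and for C5 between zones without TMM (0.12). None of these was past the threshold. The cause of these changes was not tested. Of the values of single genes, 1248 were labelled unchanged, 129 kept direction but lost the threshold and 59 moved by more than the spread between rats. For members outside the zone comparison, unchanged means within the spread between rats of the main value, and the threshold was not checked. For the other values it means the same direction and side of the threshold. Strata, subtraction, crossed block, scaling without TMM and the stricter immune-enriched gate were chosen after seeing the data. Few Kupffer nuclei (48 to 68 per rat) limit the nuclear strain values. Their median depth was also uneven, at 2531 UMIs in LEW-1 against 1472.5, 1297 and 1410 in DA-1, DA-2 and LEW-2.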
